A study of Homo sapiens with 6 samples.

Results

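The necroptosis and inflammatory caspase genes described here are MLKL, RIPK1, RIPK3, ZBP1, CASP1, CASP4, CASP5 and GSDMD. These 8 genes were taken by symbol from a table of 29889 genes with deposited read counts, and each symbol matched a single row. RNA was sequenced from A549, a human lung adenocarcinoma cell line, at 48 h after transient transfection with a pIRES-hrGFP-1a plasmid carrying CELF6 (CELF6-OE) or with the empty plasmid (Control). CELF6 is an RNA-binding protein of the CELF family that acts in splicing and mRNA stability. There were 3 biological replicates per group, both groups received plasmid DNA and transfection reagent, and each library came from a bulk culture, so a change in every cell and a change in a fraction of cells cannot be told apart.

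Necroptosis is a lytic form of cell death. RIPK1 and RIPK3 are kinases that bind each other through a shared motif, and RIPK3 phosphorylates MLKL, which then oligomerises and permeabilises the plasma membrane. ZBP1 senses Z-form nucleic acid and can engage RIPK3 without RIPK1. Pyroptosis is the lytic death that follows inflammasome activation. CASP1 is the protease of canonical inflammasomes and matures interleukins, CASP4 and CASP5 bind bacterial lipopolysaccharide in the cytosol, and all 3 caspases can cleave GSDMD, whose N-terminal part forms membrane pores. MLKL, ZBP1, CASP1, CASP4 and GSDMD are known as genes that interferons can induce.

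Levels are given as FPKM, which is fragments scaled to transcript length and sequencing depth, and library values are listed in the order of replicates 1 to 3. CELF6 itself had an FPKM of 270.1, 295 and 172 in the CELF6-OE libraries, and it had 0 counts in each Control library. The total count per library was 33748328 to 37920700. Of the epithelial markers listed for A549 (KRT8, KRT18, KRT19, EPCAM and CDH1), all 5 were detected, with a summed FPKM between 3335 and 4083 under CELF6-OE and between 4654 and 5081 in Control, and 4 of the 5 were called lower in CELF6-OE. Of 10 leukocyte markers, 8 were measured and 2 were tested, with a summed FPKM of at most 5.15 in CELF6-OE and at most 4.55 in Control. CD14, which was not called, made up most of that sum, ITGAM was called lower, and the pan-leukocyte gene PTPRC had at most 2 counts in a library. Fibroblast and endothelial markers summed to an FPKM of at most 0.47 and 0.070 in any library, and 2 of these genes could be tested. PECAM1 passed the filter on low counts through its Control libraries alone, so its lower value in CELF6-OE is a description, and COL1A1 was not called. Among all genes tested in the comparison of the groups, 11.5% were called lower in CELF6-OE. The part of the epithelial marker difference in the results that follow was not tested.

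Sequence was available for the start regions of 4 of the 8 members, in RefSeq promoter windows of GRCh38.p14 that run from 250 bases before to 50 bases after a start site. All 4 members are shown. CASP4 and CASP5 are neighbouring paralogues with different RNA levels, MLKL had the highest FPKM of the members, and RIPK1 moved least among the tested members. Each window was searched on both strands for the core of the interferon-stimulated response element (ISRE; GAAA, any 2 bases, GAAA), for the gamma-activated site (TTCNNNGAA) and for a kB site (GGGA, any base, TTTCC). Capitals mark the matches, and the rest is in lower case.
CASP4, minus strand, chr11:104968525-104968824: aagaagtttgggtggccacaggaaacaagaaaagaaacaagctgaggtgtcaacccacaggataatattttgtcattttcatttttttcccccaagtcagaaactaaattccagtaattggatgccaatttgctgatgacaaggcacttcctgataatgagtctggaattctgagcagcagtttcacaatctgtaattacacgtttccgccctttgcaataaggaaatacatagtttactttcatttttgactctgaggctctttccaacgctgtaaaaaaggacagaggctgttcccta
CASP5, minus strand, chr11:105023119-105023418: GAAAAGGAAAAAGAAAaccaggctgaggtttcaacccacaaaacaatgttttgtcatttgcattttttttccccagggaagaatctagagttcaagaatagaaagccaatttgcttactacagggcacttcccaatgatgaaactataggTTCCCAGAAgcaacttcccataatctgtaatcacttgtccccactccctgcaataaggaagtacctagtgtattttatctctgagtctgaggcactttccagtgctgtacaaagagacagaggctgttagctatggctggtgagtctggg
MLKL, minus strand, chr16:74700813-74701112: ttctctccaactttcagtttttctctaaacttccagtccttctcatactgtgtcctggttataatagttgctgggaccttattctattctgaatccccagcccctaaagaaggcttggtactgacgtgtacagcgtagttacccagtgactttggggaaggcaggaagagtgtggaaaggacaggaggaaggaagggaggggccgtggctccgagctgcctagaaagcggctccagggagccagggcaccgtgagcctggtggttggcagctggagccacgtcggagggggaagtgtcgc
RIPK1, plus strand, chr6:3068128-3068427: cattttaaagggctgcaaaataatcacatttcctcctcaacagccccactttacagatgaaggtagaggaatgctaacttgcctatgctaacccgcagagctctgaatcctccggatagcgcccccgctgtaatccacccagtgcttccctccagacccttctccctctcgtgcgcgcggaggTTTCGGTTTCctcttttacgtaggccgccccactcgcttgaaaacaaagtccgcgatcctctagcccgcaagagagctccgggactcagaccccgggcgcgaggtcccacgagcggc

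The CASP4 and CASP5 windows were alike, with 212 identical bases among 278 aligned (76.3%). CASP5 held 2 overlapping matches to the ISRE core, which begin at -250 and -244 from its start site, and a gamma-activated site match at -100. The CASP4 window held no match to any of the 3 motifs, nor did the MLKL window. The CASP4 window does not cover the start of CASP4 in GENCODE v44 (104969366), whereas the CASP5 window covers that of CASP5 (105023168). The contrast therefore concerns these windows only. RIPK1 has 3 windows in the table. The one shown holds an ISRE core match on the reverse strand at -67, and a window that starts further along holds the same site. The third, at chr6:3063717-3064016, holds none and covers the start of RIPK1 in GENCODE v44 (3063824). The window shown lies inside RIPK1, within the span of a lncRNA on the opposite strand, ENSG00000272277 (3068045 to 3068894). Among all 34796 windows of 300 bases in the table, 3.57% held the ISRE core, 7.67% the gamma-activated site and 0.56% the kB site. A match in these letters is a description and no evidence of a bound factor. The promoters of CASP1, GSDMD, RIPK3 and ZBP1 were not analysed here.

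The study also designed a primer pair for MLKL, which is shown because it marks the piece of the mRNA that its RT-qPCR read.
MLKL-F: tggttcttctggtcttgattgg
MLKL-R: gctggcactgtgacttgatt
On GRCh38 the pair spanned 250 bases, chr16:74671930-74672179, and both primers lay in exon 11, within the 3′ untranslated region of MLKL in GENCODE v44. MLKL is transcribed from the minus strand, and the primer named F matched the plus strand. Each primer matched the transcripts of a single gene. The RT-qPCR values were not analysed here.

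Executioner and pore genes were the most abundant members, and their RNA was lower in CELF6-OE. MLKL (ENSG00000168404.12; chr16:74671855-74700960, minus strand) had an FPKM of 13.98, 13.60 and 15.0 under CELF6-OE, against 24.17, 24.19 and 23.47 with the empty plasmid. The 3 CELF6-OE libraries lay below the 3 Control libraries, and MLKL was at 59.3% of its Control mean. Its log2 fold change, CELF6-OE minus Control, was -0.78 (standard error 0.067; 95% interval -0.93 to -0.64), with an adjusted p of 3.16e-05 in edgeR's quasi-likelihood test. GSDMD (ENSG00000104518.10; chromosome 8, 143553207 to 143563062, plus strand) had an FPKM of 6.41, 6.13 and 8.40 under CELF6-OE, against 14.81, 15.13 and 16.5 in Control. Its groups did not overlap either, and CELF6-OE replicate 3 was the highest of its group. The log2 fold change of GSDMD was -1.18 (standard error 0.12; 95% interval -1.44 to -0.92), with an adjusted p of 6.57e-05 in the same edgeR test.

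The 3 inflammatory caspase genes lie next to each other on the minus strand of chromosome 11, in the order CASP4 (104942866 to 104969366), CASP5 (104994235 to 105023168) and CASP1 (105025397 to 105035250), with 24868 bases between the first pair and 2228 bases between the second. Their levels and changes were unlike. CASP1 (ENSG00000137752.22) had an FPKM of 0.78, 0.70 and 1.27 under CELF6-OE, against 6.48, 5.45 and 4.54 in Control. Its lowest Control library was above its highest CELF6-OE library by 1.84 on the log2 scale of FPKM, and CASP1 was at 16.7% of its Control mean. The log2 fold change of CASP1 was -2.61 (standard error 0.20; 95% interval -3.04 to -2.17), with an adjusted p of 1.61e-05 (edgeR). CASP4 (ENSG00000196954.12) had an FPKM of 5.74, 5.48 and 6.68 under CELF6-OE, against 13.86, 13.32 and 11.42 in Control. Again the groups did not overlap, and CASP4 was at 46.4% of its Control mean. For CASP4 the log2 fold change was -1.14 (standard error 0.098; 95% interval -1.35 to -0.92) and the adjusted p 3.27e-05 (edgeR). CASP5 (ENSG00000137757.10) was represented by 2, 1 and 0 reads under CELF6-OE, with 0 in each Control library. A count of 0 allows up to 3 counts, so both groups were at or under that limit and no fold change is given. CASP1 shares sequence with its neighbour CARD16 (6, 12 and 9 reads under CELF6-OE, against 50, 49 and 42 in Control), and CASP4 with CASP5. Their values are uncertain to the extent that reads could not be assigned between such copies.

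Of the initiating genes, ZBP1 had few reads, RIPK1 changed little and RIPK3 was hardly detected. ZBP1 (ENSG00000124256.14; chr20:57603846-57620576, minus strand) was covered by 2, 12 and 12 reads under CELF6-OE and by 79, 96 and 100 in Control, which is an FPKM of 0.093 ± 0.064 against 0.92 ± 0.095 (SD, n = 3 each). All CELF6-OE libraries were below all Control libraries, although 2 to 12 counts leave the lower level poorly fixed. Pooled over libraries, the ratio of Control to CELF6-OE was 9.79, with a 95% interval of 6.54 to 15.3 that covers counting error only. The log2 fold change was -3.31 (standard error 0.35; 95% interval -4.07 to -2.55). ZBP1 passed the filter on low counts through its Control libraries alone, so its direction was favoured by the filter, and its value is given as a description with no p. RIPK1 (ENSG00000137275.13; chr6:3063824-3115187, plus strand) had an FPKM of 4.71, 4.62 and 4.89 under CELF6-OE, against 5.85, 5.95 and 5.01 in Control. Control replicate 3 came close to the CELF6-OE libraries without overlapping them. The log2 fold change of RIPK1 was -0.27 (standard error 0.083; 95% interval -0.45 to -0.089), and its adjusted p of 0.0441 (edgeR) was just under the threshold of 0.05.

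The RIPK1 call rested on the settings. Its adjusted p was under 0.05 in 9 of 19 alternatives and ranged from 0.00882 to 0.222, with log2 fold changes between -0.33 and -0.20. By edgeR's quasi-likelihood method it was 0.135 without CELF6-OE replicate 1 (log2 fold change -0.27), 0.156 without CELF6-OE replicate 2 (-0.25), 0.0794 without CELF6-OE replicate 3 (-0.30) and 0.222 without Control replicate 2 (-0.22). The 9 alternatives with an adjusted p under 0.05 include a prior count of 2, which alters fold changes only and repeats the main adjusted p. They also include the fit with no filter, whose prior degrees of freedom were infinite, so a gene's own spread did not enter. GENCODE v44 places a lncRNA, ENSG00000272277, on the opposite strand over 850 bases of RIPK1, and another, ENSG00000289161, opposite 1510 bases of GSDMD. The libraries were directional, but the strand setting of the authors' counting is not given in the sources used here.

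RIPK3 (ENSG00000129465.15; chr14:24336025-24340022, minus strand) had 0 counts in 5 libraries and 1 count in Control replicate 3. GENCODE v44 places a lncRNA, ENSG00000258973, on the same strand over 1358 bases of RIPK3, and how the authors' counting treated reads shared by overlapping genes is not given in the sources used here. RIPK3 is the kinase that links RIPK1 and ZBP1 to MLKL, and both groups were at or under the limit of 3 counts, so no difference in it was detectable at this depth.

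**Figure D1:**
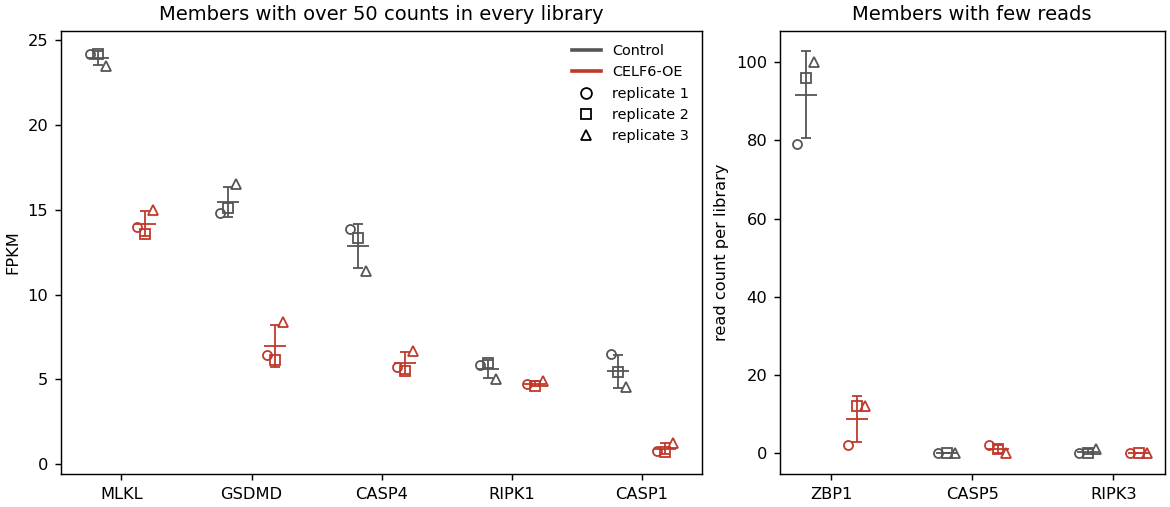
Levels of the 8 members in each of the 6 libraries, as FPKM (left) or as read counts for the members with few reads (right). Symbols are replicates, long dashes are group means and error bars are SD (n = 3). In MLKL, GSDMD, CASP4, CASP1 and ZBP1 the CELF6-OE libraries sit well below the Control libraries, RIPK1 nearly touches, and RIPK3 and CASP5 have at most 2 counts.

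Of the 8 members, 6 passed the filter on low counts (about 10 counts in at least 3 libraries) and were tested, and 2, RIPK3 and CASP5, did not pass. Leaving out ZBP1, which passed through Control alone, 5 members passed in both groups, and of these 5 were called lower at an adjusted p under 0.05 and 0 higher. Among all 15847 genes tested, 11.5% were called lower and 6.47% higher. With the criteria of the study's methods, an unadjusted p under 0.01 together with a 1.5-fold change or more, 4 of these 5 were lower, namely MLKL, CASP1, CASP4 and GSDMD, against 5.91% of all genes tested, and RIPK1 missed the fold change. The study also names a false discovery rate under 0.05 with that fold change, and the count was 4 again, against 5.82% of all genes tested. Scaled to library size (CPM), the counts of all 3 CELF6-OE libraries were below those of all 3 Control libraries for the same 5 members and for 17.6% of all genes tested. In the two-sided exact permutation test of log2(FPKM + 1), each of these 5 members had p = 0.1. That is the smallest p that 3 libraries against 3 can give, and adjusted over the 6 tested members it stayed 0.1.

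**Figure D2:**
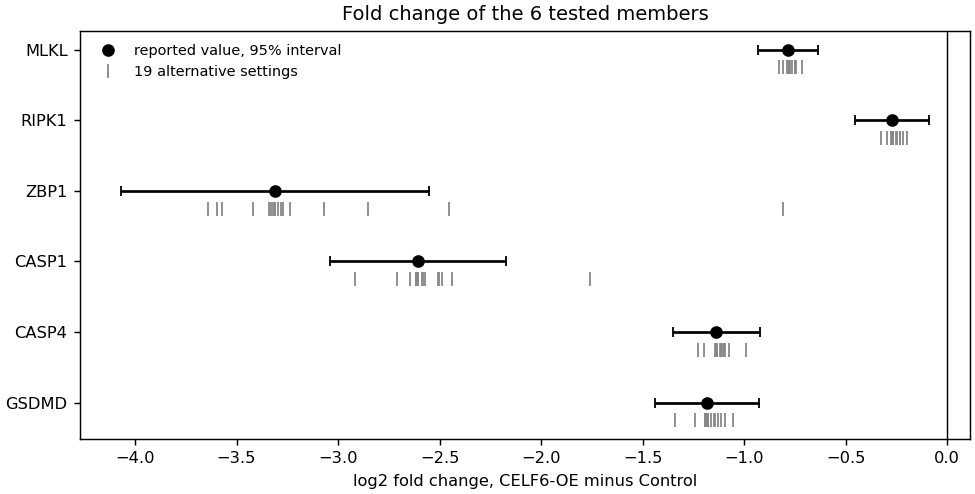
Log2 fold change of the 6 tested members (points, with 95% intervals from edgeR's quasi-likelihood fit) and under 19 alternative settings (grey ticks). All points and ticks lie below 0, with points from -0.27 for RIPK1 to -3.31 for ZBP1. The tick of ZBP1 near -0.81 and that of CASP1 near -1.76 come from log2(FPKM + 1), where the added 1 damps low values.

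The spread among replicates differed by member. The coefficient of variation of FPKM in CELF6-OE was 2.90% for RIPK1 and 5.10% for MLKL, 10.6% for CASP4 and 17.7% for GSDMD, and 33.7% for CASP1 and 68.0% for ZBP1. In Control it was between 1.71% for MLKL and 17.7% for CASP1 among the same 6 genes. CELF6-OE replicate 3, the library with the least CELF6 RNA, had the highest FPKM of its group for 5 of the 6 tested members, and for ZBP1 it shared the highest FPKM of 0.13 with replicate 2. With that library left out, the log2 fold changes were -0.83 for MLKL, -1.34 for GSDMD, -2.92 for CASP1 and -1.23 for CASP4. These 4 remained called, and their adjusted p (edgeR) spanned 5.25e-07 to 4.51e-05. The share of all genes tested with CELF6-OE replicate 3 as the highest of its group was not computed, so the count of 5 has no background. The part of the CELF6 level in the rank of replicate 3 was not tested.

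The order of the members by FPKM was MLKL, GSDMD, CASP4, RIPK1, CASP1 and ZBP1 in each group, with RIPK3 and CASP5 at the bottom. In Control, RIPK1 (5.60 ± 0.52) and CASP1 (5.49 ± 0.97; SD, n = 3 each) overlapped, and the other neighbours among the first 6 did not. In CELF6-OE, RIPK1 (4.74 ± 0.14) stood clear of CASP1 (0.92 ± 0.31), while GSDMD (6.98 ± 1.24) and CASP4 (5.97 ± 0.63) overlapped, as did ZBP1 and CASP5. MLKL kept the first place, at 23.9 ± 0.41 in Control and 14.2 ± 0.72 in CELF6-OE.

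Ratios within a library show whether paired members changed by different amounts. The FPKM of CASP4 was 2.36 times that of CASP1 in Control and 6.72 times in CELF6-OE, as geometric means. On the log2 scale the ratio was 2.88, 2.97 and 2.40 in CELF6-OE against 1.10, 1.29 and 1.33 in Control, so the libraries did not overlap, and the difference was 1.51. MLKL over RIPK1 had log2 ratios of 1.57, 1.56 and 1.62 in CELF6-OE against 2.05, 2.02 and 2.23 in Control, a difference of -0.52 without overlap. GSDMD over CASP4 had 0.16, 0.16 and 0.33 in CELF6-OE and 0.096, 0.18 and 0.53 in Control. These overlapped, with a difference of -0.053. The two-sided exact permutation p was 0.1, 0.1 and 0.8 for the 3 ratios, or 0.15, 0.15 and 0.8 adjusted over them, and 0.1 is the smallest p possible. Ratios to RIPK3 could not be formed.

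**Figure D3:**
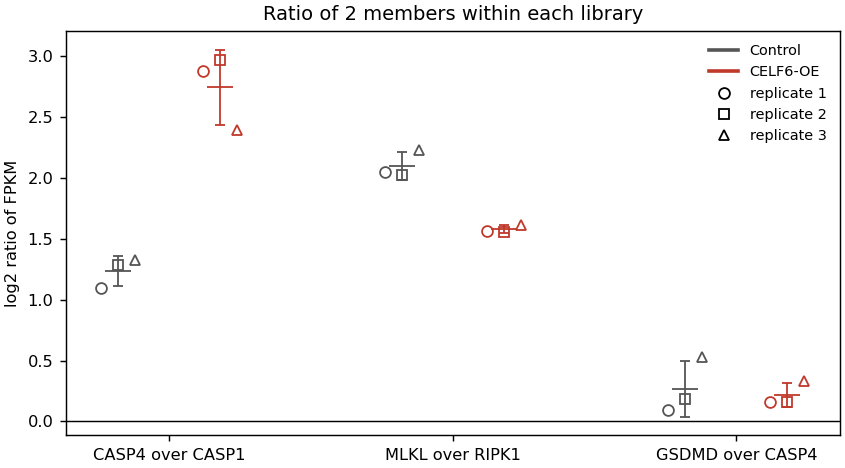
Log2 ratio of the FPKM of paired members in each library. Symbols are replicates, long dashes are group means and error bars are SD (n = 3). CASP4 over CASP1 is higher in every CELF6-OE library, MLKL over RIPK1 is lower, and GSDMD over CASP4 overlaps.

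The genes whose log2 CPM followed a member most closely over the 6 libraries were taken among 12650 genes with a mean count of at least 50. These correlations mostly carry the difference between the groups and are given without a p. Closest to MLKL were UBD (r = 0.999), HCAR2 (0.998) and PSMB10 (0.997), whose log2 fold changes were -3.18, -3.12 and -1.62. UBD encodes a ubiquitin-like modifier and PSMB10 a subunit of the immunoproteasome. GSDMD was followed by THEMIS2, ISG15 and TRIM26, with a lowest r of 0.999 after rounding, and ISG15 is an interferon-induced ubiquitin-like modifier. CASP4 ran closest to STOM, TMEM50A and SCARB2 (lowest r = 0.998), and CASP1 to TMEM50A, RPN2 and EPDR1 (lowest r = 0.999). For ZBP1 these genes were XDH, RFTN1 and CAMKK2 (lowest r = 0.992). RIPK1 was followed by DLG3, TMEM128 and SLC29A3 (lowest r = 0.991), of which 0 were called, with adjusted p of 0.0958, 0.0547 and 0.221 (edgeR).

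Upstream of RIPK1, the death receptor complex recruits adaptors and apoptotic regulators. Of 13 genes in this list, 8 were called lower (61.5%), 0 higher and 5 were not called. Among all genes tested, 11.5% were called lower and 6.47% higher. The list's median change was -0.29 on the log2 scale, against 0.011 for all genes tested. TRADD, the adaptor of the TNF receptor, had an FPKM of 11.8 ± 0.32 under CELF6-OE against 19.3 ± 1.58 (SD, n = 3 each), and fell by 0.74 on the log2 scale. BIRC3, a ubiquitin ligase that acts on RIPK1, fell by 0.85, CASP10 by 0.64 and the death receptor FAS by 0.73 on the log2 scale, with adjusted p from 0.000189 to 0.00272 for the 4 genes (edgeR). TNFRSF1A, the TNF receptor itself, had an FPKM of 157 ± 2.02 in CELF6-OE and 154 ± 3.19 in Control, with an adjusted p of 0.970 (edgeR).

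Ubiquitin and kinase checkpoints regulate the killing activity of RIPK1. The median log2 fold change of the 18 genes in this list was -0.042. Among them, 4 were called lower (22.2%, against 11.5% of all genes tested), 0 higher and 14 were not called. These 4 were TNFAIP3, an editor of ubiquitin chains (-0.76), its partner TNIP1 (-0.37), and RBCK1 (-0.39) and RNF31 (-0.29), which are subunits of the linear ubiquitin ligase, with adjusted p from 0.000572 to 0.0188 (edgeR). STUB1 was the most abundant gene that was not called, at an FPKM of 62.7 ± 2.03 in CELF6-OE and 62.9 ± 3.22 in Control.

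In the list of the nucleic acid arm and of MLKL regulators, 1 of 14 genes was called lower (7.14%), 2 were called higher and 11 were not called. Among all genes tested, the shares were 11.5% lower and 6.47% higher. The list's median was -0.048. TLR4, which was not called, passed the filter through its Control libraries alone, and without it the median of 13 genes was -0.021. TLR3, a receptor of double-stranded RNA that can signal to RIPK3, fell from 2.83 ± 0.50 to 0.93 ± 0.26 FPKM (SD, n = 3 each), and its log2 fold change was -1.63 (adjusted p of 0.000118, edgeR). HSP90AA1, a chaperone of kinases, rose by 0.38 and the phosphatase PGAM5 by 0.25 on the log2 scale, with adjusted p of 0.00918 and 0.0244 (edgeR). CDC37, the co-chaperone that brings kinases to HSP90, had a log2 fold change of 0.13 and an adjusted p of 0.221 (edgeR).

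Inflammasome sensors and adaptors control the activation of CASP1. Of 20 genes in the list, 12 could be tested, with a median of -0.85. Of these, 7 were called lower (58.3%, against 11.5% of all genes tested), 1 higher and 4 were not called. GBP1 to GBP4 were among the 7, and no sensor was. NAIP and CARD8 were the only sensors that could be tested, and neither was called. Their log2 fold changes were 0.51 and -0.038, with adjusted p of 0.228 and 0.865 (edgeR). CARD16, an inhibitor of CASP1, passed the filter through its Control libraries alone, and without it 6 of 11 were called lower, with a median of -0.71. NLRP3, NLRC4, AIM2, MEFV and NLRP6 had at most 2 counts in any library, NLRP1 at most 6, and CARD18 was not analysed here. GBP4, GBP1 and GBP2, which help CASP4 reach lipopolysaccharide on bacteria, had log2 fold changes of -2.62, -1.82 and -1.43, with adjusted p from 3.44e-06 to 0.000104 (edgeR). The value of CARD16, -2.30, is given as a description. GBP3, TXNIP and PYCARD made up the rest of the genes called lower. Their log2 fold changes were -1.31, -0.98 and -0.71, with adjusted p from 0.000629 to 0.0119 (edgeR). DPP9, a protease that holds NLRP1 and CARD8 in check, rose by 0.28 on the log2 scale (adjusted p of 0.0367, edgeR). The kinase NEK7 had a log2 fold change of -0.038 and an adjusted p of 0.916 (edgeR).

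Among 18 substrates, pore proteins and regulators of pyroptosis, 13 were tested, with a median of -0.48. Of these, 8 were called lower (61.5%, against 11.5% of all genes tested), 1 higher and 4 were not called. IL1RN, the interleukin 1 receptor antagonist, passed the filter through Control alone, and without it 7 of 12 were called lower, with a median of -0.43. IL18BP, the secreted inhibitor of interleukin 18, fell from 5.27 ± 0.10 to 0.52 ± 0.24 FPKM (SD, n = 3 each), and its log2 fold change was -3.38. IRF1, a transcription factor of the interferon response, had a log2 fold change of -1.09, SERPINB1, a protease inhibitor, of -0.997 and GSDMB, another gasdermin, of -1.76, with adjusted p from 8.78e-06 to 0.000192 for the 4 genes (edgeR). HMGB1, a nuclear protein released from dying cells, rose by 0.28 on the log2 scale (adjusted p of 0.0195, edgeR). IL18, a substrate of CASP1, was the most abundant gene that was not called, at an FPKM of 80.2 ± 1.20 in CELF6-OE and 84.6 ± 1.63 in Control, and IL1B had 7 to 12 counts in every library and was not tested.

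Among the apoptotic caspases, 7 of 8 were tested, with a median of -0.34. Of these, 4 were called lower (57.1%, against 11.5% of all genes tested), 0 higher and 3 were not called. CASP9, the apoptosome caspase, had a log2 fold change of -0.60, CASP10 of -0.64 and CASP8 of -0.34, with adjusted p from 0.00144 to 0.0091 (edgeR). CASP8 and CASP10 also stand in the death receptor list. CASP2 had a log2 fold change of 0.11 and an adjusted p of 0.284 (edgeR).

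**Figure D4:**
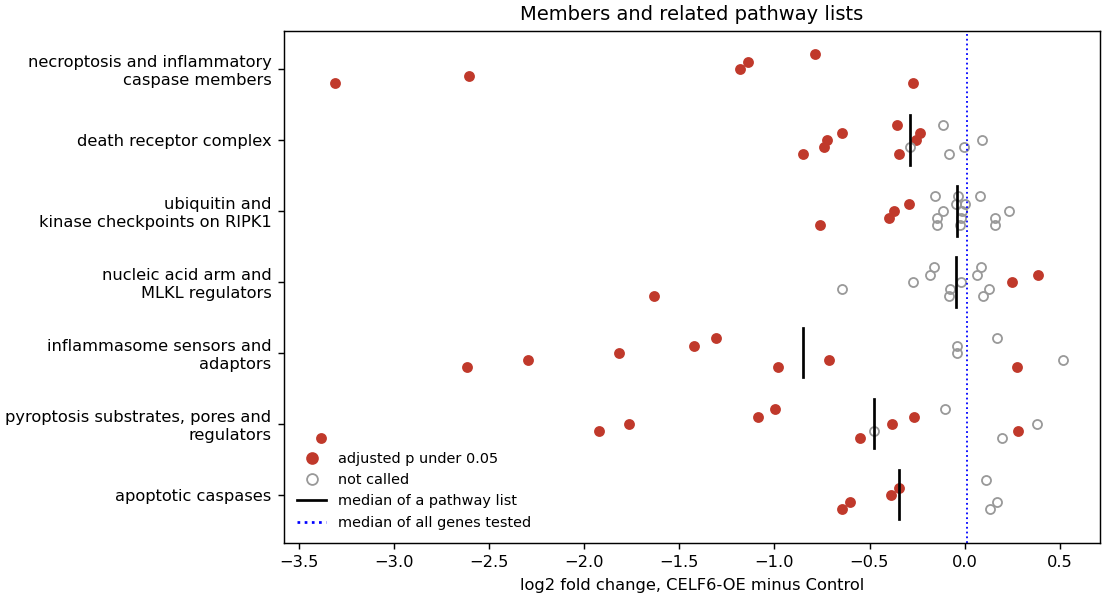
Log2 fold change of each tested gene among the members and in the 6 related lists. Filled points have an adjusted p under 0.05, open points were not called, black bars are list medians and the dotted line is the median of all genes tested, at 0.011. CASP1 and ZBP1 lie at the far left of the members, and the checkpoint list, with a median of -0.042, is centred near the dotted line. ZBP1, CARD16 and IL1RN passed the filter on low counts through Control alone, so their filled points are a description only.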

How the data were processed

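RNA from 6 A549 libraries was used, and groups and replicate numbers were read from the sample labels. According to the study's methods, the authors trimmed the reads (FASTX-Toolkit), used TopHat2 for alignment against GRCh38, and kept uniquely located reads. The authors deposited raw read counts per gene and FPKM values rounded to 2 decimals; the counting tool and annotation release are not given in the sources used here.

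Counts were scaled with TMM, filtered with filterByExpr (minimum count 10) and tested with edgeR 4.0.16 in R 4.3.3 (glmQLFit and glmQLFTest, Benjamini-Hochberg adjustment over 15847 genes, prior count 0.125). Standard errors were derived from the F statistic. Prior degrees of freedom were 7.15, and the biological coefficient of variation was 8.62%. The whole table was fitted, and the procedure was tested on simulated counts. FPKM served for levels, ratios and exact permutation tests. Alternatives used DESeq2 1.42.0, limma 3.58.1, other scalings and fewer libraries. Replicates of a group were no duplicates (chi-square per degree of freedom 7.67 to 29.3).

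Members and gene lists were chosen with earlier results of these data known. All members were named; in each list, up to 4 called genes per direction with the smallest adjusted p and the uncalled gene with the highest FPKM were named, and for each called member the 3 genes with the highest Pearson correlation. Genes named for having few counts (the inflammasome sensors, IL1B and PTPRC) were added after their values were seen. So were CD14, IL1RN, GBP3, TXNIP, PYCARD, NAIP, CARD8, PECAM1, COL1A1, TLR4 and CARD16's counts. Gene positions are from GENCODE v44, and promoters from RefSeq. Windows were aligned with Biopython 1.88. Protein sequences were not used here, and 1 gene that the rule names is not reported here.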

Additional observations from a re-analysis of the deposited data

How the results depend on the processing

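Of the 6 tested members, MLKL, CASP1, CASP4 and GSDMD kept their direction and an adjusted p under 0.05 in all 19 alternatives. Their adjusted p was at most 0.000981, and ZBP1 kept its direction. The alternative with a prior count of 2 repeats the main p and is no separate check of a call. RIPK1 kept its direction and lost its call with total counts only (-0.23), upper quartile factors (-0.25), DESeq2 (-0.27), and limma on log2(FPKM + 1) (-0.20) or on log2(FPKM + 0.1) (-0.23), and with 1 library left out its log2 fold change ranged from -0.33 to -0.22. The cause was not tested. The difference in GSDMD over CASP4 ranged from -0.14 to 0.077 with 1 library left out and turned positive without Control replicate 3. ZBP1 depended on the unit, at -0.81 with log2(FPKM + 1) and -2.45 with log2(FPKM + 0.1), since its FPKM lies under the added 1, and CASP1 was at -1.76 with the former. With a library left out, between 1032 and 2370 genes were called lower and between 281 and 1906 higher, against 1820 and 1025 with all 6. The count lower moved by over 1.5 times without CELF6-OE replicate 1 (1127), CELF6-OE replicate 2 (1066) or Control replicate 2 (1032), and the count higher without CELF6-OE replicate 1 (378), 2 (281) or 3 (624), or Control replicate 1 (1906) or 2 (287).

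The labels number the replicates and do not say whether equally numbered cultures were prepared together. Deviations from the group means of equally numbered libraries had correlations of -0.011, -0.021 and -0.072, and 0 of 6 libraries correlated best with its own number. With 3 libraries per group, these values cannot decide whether the libraries were paired. With the replicate block, RIPK1 had a log2 fold change of -0.27 and an adjusted p of 0.0922, 1 gene in place of 2 was called higher in the list of the nucleic acid arm and MLKL regulators, 7 in place of 8 were called lower in the death receptor and in the pyroptosis list, and 1570 genes were called lower and 720 higher. At this depth RIPK3 and CASP5 could not be tested, and ZBP1 rests on 26 counts in CELF6-OE.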
